A study of Mus musculus with 8 samples.

Results

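The genes described here are the p53 family and the checkpoint genes around it that act in pachytene spermatocytes, the male germ cells in the long stage of meiotic prophase at which homologous chromosomes are fully paired. They were taken by gene symbol and number 10 of the 21058 genes in the deposited tables: *Trp53*, *Trp63*, *Trp73*, *Chek1*, *Chek2*, *Bbc3*, *Pmaip1*, *Bax*, *Bak1* and *Cdkn1a*. RNA was sequenced from pachytene spermatocytes that had been enriched by Sta-Put sedimentation at unit gravity, in 4 *Arid1a* WT and 4 *Arid1a* cKO libraries. ARID1A is a putative DNA-binding subunit of a BAF (SWI/SNF) chromatin remodelling complex. *Arid1a* cKO males carried floxed *Arid1a* alleles (*Arid1a* fl/fl) and the *Stra8-Cre* transgene (Tg/0), which is switched on in spermatogonia; the controls, labelled Arid1aWT, were fl/fl or fl/+ without Cre, and the floxed line was kept on a CD1 background. According to the methods, testes of several adult males were combined for a sedimentation. The study describes excision by this Cre as incomplete, with some pachytene spermatocytes of cKO testes escaping it and still holding ARID1A. The labels call the libraries biological replicates but do not say which animals each held.

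p53, p63 and p73 are related transcription factors that respond to DNA damage and other stress. ATM and ATR, kinases that sense DNA breaks and single-stranded DNA, signal through the checkpoint kinases CHK2 (*Chek2*) and CHK1 (*Chek1*), and p53 family proteins in turn raise transcription of *Cdkn1a*, which halts the cell cycle, and of *Bbc3* and *Pmaip1*, whose BH3-only proteins PUMA and NOXA occupy the BCL2 survival proteins. BAX and BAK (*Bax*, *Bak1*) are then free to open the outer mitochondrial membrane, and in mouse spermatocytes that do not repair their meiotic breaks CHK2, p53 and p63 are known to take part in arrest at pachynema.

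Because several members are textbook targets of p53, the promoter windows of RefSeq (GRCm38.p6, 250 bases before the start site) are shown for those with a match to the p53 half-site, a palindromic word of which a p53 tetramer binds a pair (searched on both strands), and for *Chek2* as a window without it. Windows of 8 of the 10 members were searched, 12 windows in all since *Bbc3*, *Cdkn1a* and *Trp73* have more than 1 start site; those of *Trp63* and *Pmaip1* were not used here. The half-site was matched in 3 of these 12 windows, those of *Bax* and *Trp53* and the upstream window of *Cdkn1a* but not its downstream one, and in 7.13% of all 32851 windows of this length. Each is written 5′ to 3′ on the strand of the gene, with the matched letters in capitals.

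Cdkn1a, chr17:29090729-29090978, + strand: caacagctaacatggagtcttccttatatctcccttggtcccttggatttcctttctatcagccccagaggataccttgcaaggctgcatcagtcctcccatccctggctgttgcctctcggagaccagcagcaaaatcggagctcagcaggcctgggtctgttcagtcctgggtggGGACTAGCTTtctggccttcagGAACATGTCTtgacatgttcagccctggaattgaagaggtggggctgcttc

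Bax, chr7:45466899-45467148, - strand: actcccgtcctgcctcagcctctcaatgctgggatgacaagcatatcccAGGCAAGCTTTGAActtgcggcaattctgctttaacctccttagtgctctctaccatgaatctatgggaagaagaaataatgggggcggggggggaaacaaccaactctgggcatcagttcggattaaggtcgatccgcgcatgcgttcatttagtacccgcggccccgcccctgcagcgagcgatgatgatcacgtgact

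Trp53, chr11:69580109-69580358, + strand: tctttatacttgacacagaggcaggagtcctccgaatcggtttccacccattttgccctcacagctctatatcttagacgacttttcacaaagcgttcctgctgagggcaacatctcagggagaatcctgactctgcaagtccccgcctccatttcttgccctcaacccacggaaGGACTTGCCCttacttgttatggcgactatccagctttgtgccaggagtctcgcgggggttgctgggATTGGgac

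Chek2, chr5:110839733-110839982, + strand: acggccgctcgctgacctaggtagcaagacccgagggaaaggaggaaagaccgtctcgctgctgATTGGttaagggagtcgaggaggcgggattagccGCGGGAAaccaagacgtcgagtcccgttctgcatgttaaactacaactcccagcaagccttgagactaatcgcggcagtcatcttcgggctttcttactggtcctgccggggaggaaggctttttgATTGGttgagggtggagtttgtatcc

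The 2 half-sites of *Cdkn1a* began 73 and 51 bases before the upstream start site of the gene, that of *Bax* 201 bases and that of *Trp53* 75 bases before the start. In *Bax* the capitals run together because the half-site overlaps a CHR (TTTGAA, searched on both strands, in 16.0% of all windows), the cell cycle homology word of G2 genes. A CCAAT box (CCAAT on either strand, in 33.8% of windows) lay next to the *Trp53* start, at 2 places in *Chek2*, where it appears as ATTGG, and in a window of *Bbc3*. *Chek2* also held the E2F word TTCCCGC on the opposite strand, as GCGGGAA, which 3.82% of windows held, as did *Trp73* and a window of *Bbc3*. A second E2F word, TTGGCGC, was found in 1.97% of windows and, among the members, only in *Trp73*. The windows of *Chek1* and *Bak1*, which had the smallest adjusted p-values of the 10, held none of these words. The bases just after the start of each *Bbc3* window were not found in a GENCODE transcript of the gene, unlike those of the other windows. A match describes these letters and not binding.

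Libraries held 15850961 to 22044507 estimated counts. The 17643 genes that reached 10 counts over all libraries were compared by the quasi-likelihood test of edgeR, with p adjusted by Benjamini and Hochberg's method, and every log2 fold change is cKO over WT. *Arid1a* itself, the targeted gene, stood at 105, 128, 121 and 98.8 CPM (counts scaled to library size, with TMM factors) in the WT libraries and 76.4, 81.0, 82.9 and 78.3 in cKO (log2 fold change -0.51 ± 0.07 (SE), n = 4 per genotype, adjusted p = 2.31e-05). The study detected *Arid1a* transcripts lacking the floxed exons in cKO pachytene spermatocytes. Gene-level counts do not separate these from intact transcripts, so the change does not measure excision. Of 10 markers of pachytene spermatocytes, the summed TPM (the abundance scale that corrects for transcript length) was 8028 to 9176 in WT and 7054 to 7524 in cKO. All were detected, with 4 higher in cKO, 5 lower and 1 not called, and their log2 fold changes ran from -3.88 for *Piwil1* to 1.504 for *Pgk2*. These sums did not overlap between genotypes, nor did those of the other cell types apart from the spermatogonial ones. The sum over 12 spermatid genes was 6161 to 6998 TPM in WT and 25526 to 27306 in cKO, with 12 of 12 higher. The sum over 10 Sertoli genes was 317 to 352 in WT and 110 to 118 in cKO, with 9 lower and *Rhox5* at 0 in every library. That over 7 Leydig genes was 78.7 to 92.2 in WT and 7.27 to 8.91 in cKO, with 6 lower, while 10 macrophage and blood genes summed to 8.84 to 10.5 in WT and 13.6 to 16.7 in cKO, with 7 higher and 2 lower. Peritubular and stromal markers, 8 genes, summed to 23.7 to 30.3 in WT and 17.2 to 19.6 in cKO. Of these 6 were higher and 1 lower, and the lower gene, *Col3a1*, had a mean of 15.4 TPM in WT and 3.63 in cKO. Among other germ cells, 8 leptotene and zygotene genes summed to 374 to 422 in WT and 164 to 181 in cKO. Of these 5 were higher and 3 lower. The lower ones included *Hormad1*, at a mean of 262 TPM in WT and 105 in cKO, and *Spo11*, at 108 and 16.1. The 10 spermatogonial genes summed to 130 to 140 in WT and 139 to 149 in cKO, with 8 higher and 1 lower. The part of these cells in any result was not tested, and in bulk RNA fewer cells of a type and less RNA per cell cannot be told apart.

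**Figure D1:**
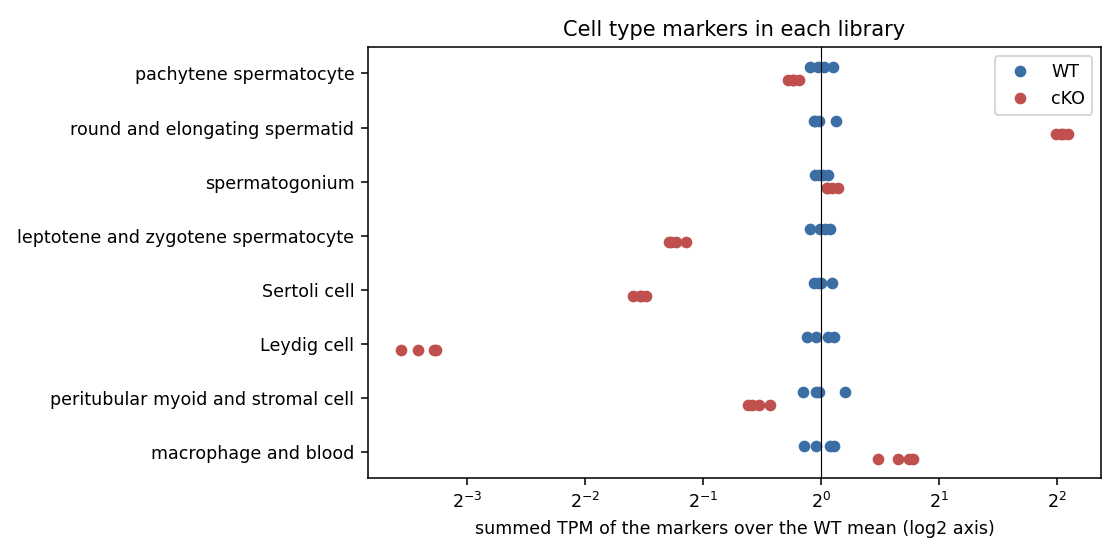
Summed TPM of each marker list in every library, divided by the WT mean of that list, on a log2 axis, with WT libraries in blue and cKO libraries in red. The spermatid sums of the 4 cKO libraries average 4.11 times those of WT, whereas the Sertoli and Leydig sums average 0.345 and 0.0964 of WT.

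All 10 members reached that minimum. Of these, 3 were higher in cKO (*Bbc3*, *Chek1* and *Trp63*), 4 were lower (*Bak1*, *Trp53*, *Pmaip1* and *Chek2*) and 3 did not pass the test (*Bax*, *Cdkn1a* and *Trp73*). Their share of calls, 70.0%, is near that of all genes tested, 74.0%, with 36.5% higher and 37.5% lower, so the number called says little about these genes as a group. Over all genes 6435 were higher and 6613 lower, against 5879 and 7216 in edgeR without TMM, where the members stayed at 3 and 4. They were 4854 and 7624 with limma on TPM rescaled to the listed genes, which changes the test, the length correction and the scaling together and called 3 members higher and 6 lower. The family, the kinases and the BH3-only genes each held a member that rose and a member that fell, and of the mitochondrial effectors only *Bak1* passed the test. The 4 cKO values all lay above or all below the 4 WT values in 6 members, 3 in each direction, where 68.9% of all genes tested were separated in this way, 34.0% with cKO above and 34.9% with cKO below. The median log2 fold change of the members was -0.06, against -0.02 over all genes, and their median absolute change was 0.67 against 0.76.

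**Figure D2:**
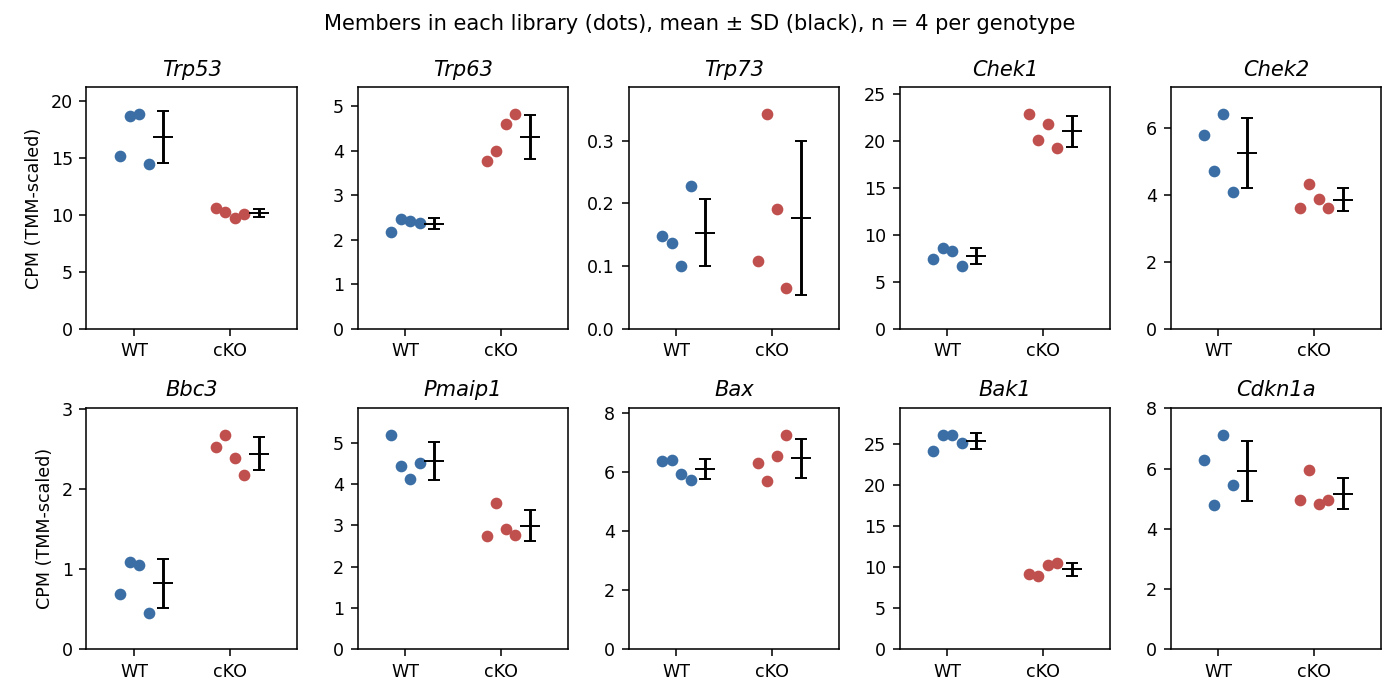
TMM-scaled CPM of each member in every library (dots, WT blue, cKO red) with the mean and SD in black, on axes that start at 0. *Chek1*, *Bbc3* and *Trp63* lie higher in every cKO library than in any WT library, *Bak1*, *Trp53* and *Pmaip1* lower, and the other 4 members overlap.

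*Trp53*, which encodes p53 (chr11:69580348-69591873, Entrez 22059), fell. It stood at 15.2, 18.7, 18.9 and 14.5 CPM in *Arid1a* WT and at 10.6, 10.2, 9.76 and 10.1 in *Arid1a* cKO. The lowest WT library lay well above the highest cKO library. WT replicates 2 and 3 lay above WT replicates 1 and 4, as they also did for *Arid1a*, *Chek1*, *Bbc3*, *Trp63* and *Bak1*. Over all genes, WT libraries differed more from each other (chi-square per degree of freedom of 4.38 to 18 for a pair) than cKO libraries did (1.71 to 3.45). By edgeR the abundance was 1.65-fold lower in cKO (log2 fold change -0.73 ± 0.10 (SE), n = 4 per genotype, adjusted p = 7.65e-06). Of the 31-base words in *Trp53* transcripts, 10.1% occur in another gene and 8.79% in the pseudogene *Trp53-ps*, so that some of its reads could have been split between the pair.

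*Trp63*, which encodes p63 (chr16:25683763-25892088, Entrez 22061), rose. Its CPM was 2.18, 2.47, 2.41 and 2.37 in WT and 3.77, 3.997, 4.59 and 4.82 in cKO. The WT libraries were nearly level, and each cKO library exceeded all of them. The change was 1.82-fold (log2 fold change 0.86 ± 0.13 (SE), n = 4 per genotype, adjusted p = 3.85e-05, edgeR), on 44 to 54 counts per WT library and 70 to 96 per cKO library. *Trp63* has a long form (TAp63) and a form that starts within the gene (ΔNp63), and gene-level counts do not separate them. On the log2(TPM + 1) scale, which compresses low genes, the change of *Trp63* was 0.39, and with TPM rescaled to the listed genes it was 0.35, the smallest over all alternatives.

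*Trp73*, which encodes p73 (chr4:154056249-154139875, Entrez 22062), was barely detected. It had 3, 3, 2 and 5 counts in the WT libraries and 2, 6, 4 and 1 in cKO. The genotypes overlapped fully, and at this depth a change of the size seen for *Trp53* or *Trp63* would lie within its interval (log2 fold change 0.20 ± 0.57 (SE), n = 4 per genotype, adjusted p = 0.761, 95% interval -1.03 to 1.43, edgeR). Its sign was not stable: the log2 fold change of *Trp73* was -0.28 without the second cKO library and 0.91 with transcript length offsets. An antisense gene, *Trp73os*, shares 5.06% of its exon bases, and whether reads were counted by strand is not given in the sources used here.

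Within the family the balance between *Trp53* and *Trp63* RNA therefore differed by genotype, and protein was not measured here. Per transcript length, the TPM of *Trp53* was 17.2, 19.02, 20.1 and 16.3 times that of *Trp63* in the 4 WT libraries and 7.21, 5.79, 5.71 and 5.98 times in the 4 cKO libraries. Every WT ratio lay above every cKO ratio, and *Trp53* remained the most abundant family member in all 8 libraries.

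The checkpoint kinases moved in opposite directions. *Chek1*, the kinase downstream of ATR (chr9:36708482-36726658, Entrez 12649), stood at 7.42, 8.60, 8.28 and 6.64 CPM in WT and at 22.8, 20.1, 21.8 and 19.2 in cKO. Every cKO library had more than double the *Chek1* of any WT library. The rise was 2.72-fold (log2 fold change 1.44 ± 0.09 (SE), n = 4 per genotype, adjusted p = 2.23e-09, edgeR). All 12 spermatid markers rose in the same libraries, and their part in the rises of *Chek1*, *Bbc3* and *Trp63* was not tested.

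*Chek2*, the kinase downstream of ATM (chr5:110839800-110874140, Entrez 50883), was lower by a smaller amount. It stood at 5.79, 4.71, 6.42 and 4.09 CPM in WT and at 3.61, 4.34, 3.88 and 3.60 in cKO. The ranges overlapped, since the second cKO library lay above the fourth WT library. The fall was 1.36-fold (log2 fold change -0.44 ± 0.15 (SE), n = 4 per genotype, adjusted p = 0.0155, edgeR), and it passed the threshold of 0.05 but not 0.01.

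The size of the *Chek2* change depended on transcript length. Relative transcript length, the estimated count over the TPM scaled to the median gene, was 0.169, 0.158, 0.140 and 0.260 for *Chek2* in WT and 0.285, 0.266, 0.505 and 0.248 in cKO. All 8 values lay far below the median gene, and the third cKO library stood well above the other three. The cKO mean was 1.79 times the WT mean, though the libraries overlapped. Over the 9237 genes with 100 or more counts in every library, which *Chek2* did not reach, the 5th percentile of such ratios was 0.782 and the 95th 1.16. With transcript length offsets in edgeR the log2 fold change of *Chek2* was -1.28 ± 0.31 (adjusted p = 0.00258), against -0.44 without. Over all alternatives it ran from -1.37 to -0.33, always lower in cKO. Of its 31-base words, 6.56% occur in another gene.

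For the pair of kinases the order by TPM switched with genotype. The TPM of *Chek1* was 0.306, 0.431, 0.292 and 0.593 times that of *Chek2* in WT, and 2.91, 1.90, 4.14 and 2.26 times in cKO. All WT ratios were below 1 and all cKO ratios above it, although these ratios carry the length estimates of *Chek2*. In CPM, which is not divided by length, *Chek1* lay above *Chek2* in every library of both genotypes, so that order did not switch.

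**Figure D3:**
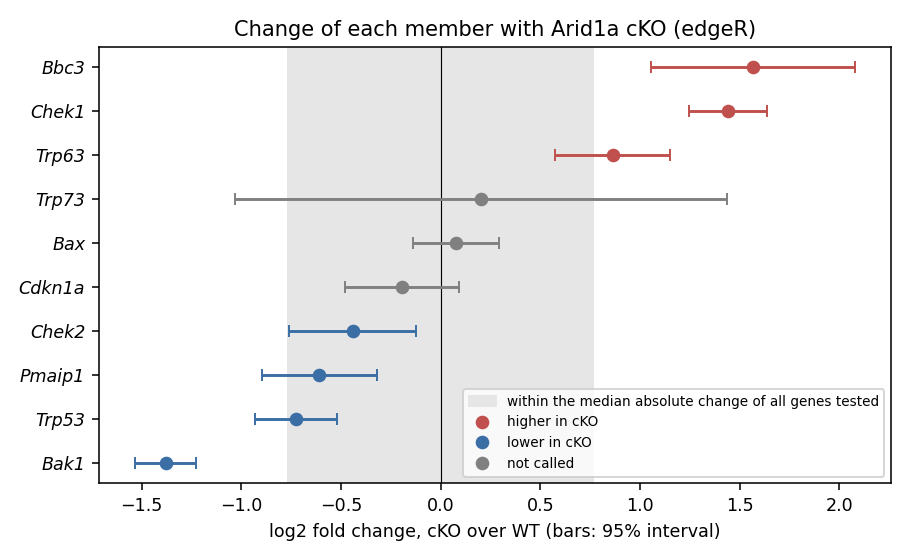
log2 fold change, cKO over WT, of each member from edgeR with its 95% interval; red and blue mark members called higher and lower, grey those not called, and the grey band spans the median absolute change of all genes tested, 0.76. *Bbc3* and *Chek1* at the top and *Bak1* at the bottom lie wholly outside the band, and *Trp73* has the widest interval.

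The BH3-only members also split. *Bbc3*, which encodes PUMA (chr7:16308398-16318334, Entrez 170770), was a low gene that rose. It had 14, 24, 21 and 10 counts in the WT libraries and 47, 47, 50 and 34 in cKO, or 0.693, 1.10, 1.05 and 0.455 CPM and 2.53, 2.68, 2.39 and 2.18 CPM. The lowest cKO library had nearly double the CPM of the highest WT library. The rise was 2.96-fold (log2 fold change 1.57 ± 0.24 (SE), n = 4 per genotype, adjusted p = 3.18e-05, edgeR), the largest change of the 10 in the main test, with a 95% interval from 1.06 to 2.08.

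*Pmaip1*, which encodes NOXA (chr18:66458604-66465558, Entrez 58801), fell. Its CPM was 5.20, 4.44, 4.11 and 4.50 in WT and 2.74, 3.54, 2.92 and 2.76 in cKO. The genotypes did not overlap, with the second cKO library nearest to WT. The fall was 1.52-fold (log2 fold change -0.61 ± 0.13 (SE), n = 4 per genotype, adjusted p = 0.000867, edgeR). In TPM, *Bbc3* lay below *Pmaip1* in all 4 WT libraries, at ratios of 0.207, 0.371, 0.624 and 0.219, and above it in all 4 cKO libraries, at 2.92, 2.22, 1.88 and 1.80.

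Of the mitochondrial effectors, *Bak1* fell and *Bax* did not pass the test. *Bak1* (chr17:27019812-27028627, Entrez 12018) stood at 24.0, 26.1, 26.1 and 25.1 CPM in WT and at 9.15, 8.96, 10.3 and 10.5 in cKO. The libraries of each genotype were tightly grouped and far from those of the other. The fall was 2.60-fold (log2 fold change -1.38 ± 0.07 (SE), n = 4 per genotype, adjusted p = 2.57e-10, edgeR), the smallest adjusted p of the 10. Sertoli and Leydig markers, given above, fell in the same libraries, and their part in the fall of *Bak1* was not tested. *Ggnbp1*, on the opposite strand, shares 18.2% of the exon bases of *Bak1*, and it is far more abundant, at 970.3 ± 87.1 CPM in WT and 937 ± 97.1 in cKO (SD, n = 4 per genotype). The log2 fold change of *Ggnbp1* was -0.05 ± 0.08 (edgeR, adjusted p = 0.583).

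*Bax* (chr7:45461695-45466903, Entrez 12028) stood at 6.38, 6.40, 5.92 and 5.73 CPM in WT and at 6.30, 5.71, 6.56 and 7.26 in cKO. The genotypes overlapped, with the highest value and the lowest value both in cKO libraries. The interval of its log2 fold change, -0.14 to 0.29, spans 0 (log2 fold change 0.08 ± 0.10 (SE), n = 4 per genotype, adjusted p = 0.499, edgeR). Its sign was not stable: the log2 fold change of *Bax* was -0.021 in edgeR without TMM, -0.0018 with transcript length offsets, -0.090 with limma on log2(TPM + 1) and -0.23 with limma on TPM rescaled to the listed genes (adjusted p = 0.0413). Of its 31-base words 11.1% occur in another gene, and 9.89% in *Gm45808*, which overlaps it on the same strand.

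*Bak1* exceeded *Bax* in TPM in every WT library, by 1.23, 1.26, 1.42 and 1.41 times, and was below it in every cKO library, at 0.475, 0.493, 0.563 and 0.466 times. The order of the effectors thus switched between genotypes, with *Bax* TPM at 12.7 ± 1.15 in WT and 11.9 ± 1.12 in cKO (SD, n = 4 per genotype).

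*Cdkn1a*, which encodes the CDK inhibitor p21 (chr17:29090979-29100722, Entrez 12575), stood at 6.28, 4.80, 7.12 and 5.46 CPM in WT and at 4.95, 5.94, 4.83 and 4.95 in cKO. All 4 cKO values lay inside the WT range. No change passed the test (log2 fold change -0.19 ± 0.13 (SE), n = 4 per genotype, adjusted p = 0.201, 95% interval -0.48 to 0.09, edgeR). Without WT replicate 3 the log2 fold change of *Cdkn1a* was -0.093, and leaving out each library in turn it ran from -0.28 to -0.093, never past the threshold. On the 3 TPM scales *Cdkn1a* did pass it as lower, with a log2 difference of -0.31 to -0.45 (limma, adjusted p = 0.0133 to 0.0476). Listed genes held 78.1% to 81.1% of all TPM in WT and 88.1% to 88.6% in cKO, so the TPM scales of the genotypes are not the same.

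**Figure D4:**
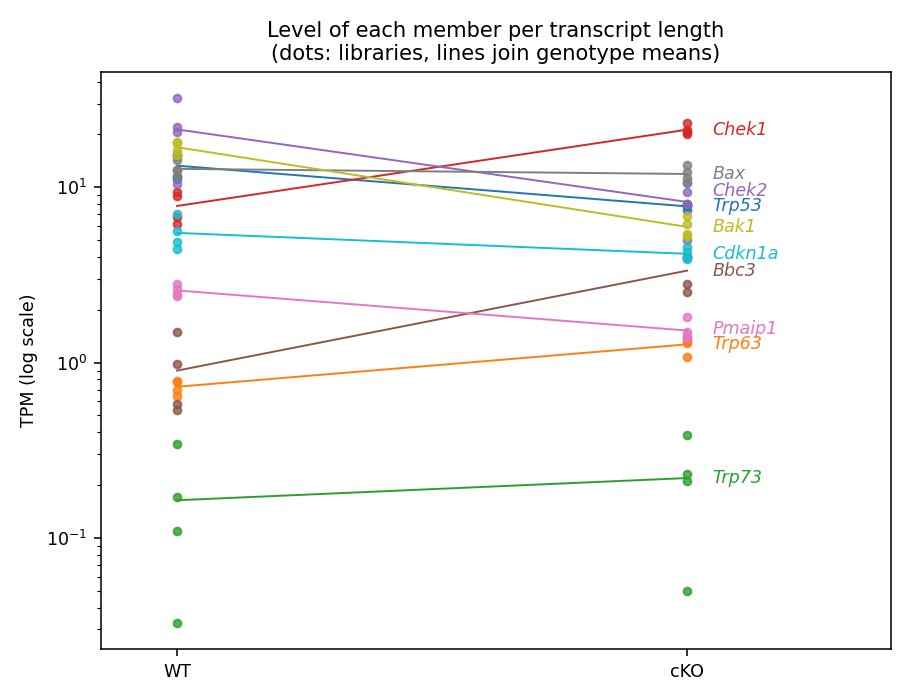
TPM of each member on a log axis in WT and cKO, with a dot for each library and a line between genotype means. The line of *Chek1* climbs past those of *Chek2*, *Bak1*, *Trp53* and *Bax*, that of *Bbc3* past *Pmaip1*, and *Trp73* is lowest in both genotypes.

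By TPM, which allows levels of different genes to be compared, the order in WT was *Chek2* (21.4 ± 8.96), *Bak1* (16.9 ± 1.30), *Trp53* (13.3 ± 2.32), *Bax* (12.7 ± 1.15), *Chek1* (7.82 ± 1.58), *Cdkn1a* (5.49 ± 1.12), *Pmaip1* (2.58 ± 0.186), *Bbc3* (0.899 ± 0.445), *Trp63* (0.727 ± 0.0653) and *Trp73* (0.164 ± 0.132), as mean ± SD with n = 4. Neighbours from *Chek2* to *Bax* overlapped in their libraries, as did *Chek1* with *Cdkn1a* and *Bbc3* with *Trp63*. The first place of *Chek2* rests on its low relative transcript length. Its mean CPM in WT was 5.25, below *Bak1* at 25.3, *Trp53* at 16.8 and *Chek1* at 7.73. In cKO *Chek1* was first at 21.3 ± 1.37 TPM, above *Bax* at 11.9 ± 1.12 with no overlap. *Chek2* (8.24 ± 2.41) overlapped *Trp53* (7.77 ± 0.281), which lay above *Bak1* (5.94 ± 0.751). *Cdkn1a* (4.17 ± 0.307) overlapped *Bbc3* (3.34 ± 0.781), and *Pmaip1* (1.52 ± 0.198) overlapped *Trp63* (1.27 ± 0.131), with *Trp73* last at 0.219 ± 0.137.

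Among the other members, *Pmaip1* and *Bax* were the members whose relative length did not overlap between genotypes, at 1.06 and 1.07 times the WT mean, where 54.9% of those 9237 genes did not overlap and the median ratio was 1.04. *Bax* was among those 9237 genes, with *Trp53*, *Chek1* and *Bak1*, whereas *Pmaip1*, *Trp63*, *Trp73*, *Bbc3* and *Cdkn1a* had under 100 counts in some library. *Trp53*, *Trp63*, *Chek1* and *Bak1* had ratios of 0.979, 0.995, 0.937 and 1.05, with overlapping libraries. *Cdkn1a* at 1.09 and the low genes *Bbc3* at 0.746 and *Trp73* at 0.547 overlapped as well.

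The surrounding pathway was read from lists of genes by role. Of 18 regulators of p53, 6 were higher in cKO, 11 lower and 1 not called, with a median log2 fold change of -0.24. The share called was 94.4%, beside 74.0% of all genes tested. *Mdm2*, the ubiquitin ligase that keeps p53 low, rose by little (log2 fold change 0.16 ± 0.05, adjusted p = 0.00713, edgeR), whereas its partner *Mdm4* fell (-0.78 ± 0.05, adjusted p = 3.64e-09). The phosphatase gene *Ppm1d*, which reverses p53 and CHK signalling, rose (1.84), as did the ubiquitin ligase gene *Wwp1* (2.12). The kinases above the checkpoint diverged: *Atr* fell (-1.80 ± 0.06, adjusted p = 7.18e-13) and *Atm* rose (0.79 ± 0.09, adjusted p = 1.2e-06). *Atr* and its downstream kinase *Chek1* thus moved in opposite directions, and so did *Atm* and *Chek2*.

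Of 30 p53 target genes other than the members, 7 were higher, 10 lower and 13 not called. Their median log2 fold change was -0.08. The share called, 56.7%, compares with 74.0% of all genes tested. *Dram1*, which acts in autophagy, rose by 2.09, and *Spata18*, which acts in mitochondrial quality control, by 2.06. *Tigar*, which acts on glycolysis, fell by 1.37 on the log2 scale. *Spata18* rose beside the spermatid markers, whose part was not tested.

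Of 22 genes of the CHK pathway and its targets, 13 were higher, 8 lower and 1 not called, with a median of 0.30. The share called was 95.5%, beside 74.0% of all genes tested, of which 36.5% were higher and 37.5% lower. *Cdc25c*, whose phosphatase activates CDK1 and is held back by CHK1, rose (2.07 ± 0.07, adjusted p = 1.08e-12, edgeR), as did *Tipin* (2.11 ± 0.06, adjusted p = 1.69e-13), whose product steadies stalled replication forks and helps activate CHK1. *Cdk2* fell (-2.53 ± 0.05, adjusted p = 4.78e-14). *Trip13*, the ATPase that remodels HORMA proteins on synapsed chromosomes, did not pass the test (-0.05 ± 0.07, adjusted p = 0.538).

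Among BCL2 survival proteins 7 of 8 genes were tested, and 3 were lower with none higher, or 42.9% called beside 74.0% of all genes tested. These were *Bcl2l2* (-1.28 ± 0.09, adjusted p = 1.43e-08, edgeR), *Mcl1* (-0.47 ± 0.04, adjusted p = 2.07e-07) and *Bcl2l1* (-0.32 ± 0.05, adjusted p = 9.49e-05), while *Bcl2* was low and did not pass (-0.74 ± 0.35, adjusted p = 0.0679). The other 3 that did not pass, the paralogs *Bcl2a1a*, *Bcl2a1b* and *Bcl2a1d*, named after their values were seen, had log2 fold changes of 1.19, 1.55 and 3.14 (edgeR, adjusted p = 0.0582, 0.105 and 0.0594), all under 1 CPM, and reads could be split among such near-identical copies. Of the 10 other BH3-only and BAX-like genes 3 were higher, 4 lower and 3 not called, a share called of 70.0% beside 74.0% of all genes tested. *Bcl2l11*, which encodes BIM, rose (0.77), *Bad* fell (-0.78), and *Bcl2l14* rose (2.27).

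Downstream of the mitochondrion, 4 of 20 apoptosome, caspase and inhibitor genes were higher, 10 lower and 6 not called, with a median of -0.31. The share called, 70.0%, is near the 74.0% of all genes tested. *Casp9*, the initiator caspase, fell (-0.89 ± 0.09, adjusted p = 5.1e-07, edgeR). *Apaf1* did not pass (0.15 ± 0.19, adjusted p = 0.483). *Diablo*, whose product relieves caspase inhibition, fell (-1.54), as did *Dffa* (-1.41) and *Dffb* (-1.55), the inhibitor and the nuclease of apoptotic DNA cutting.

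Of 6 CDK inhibitor genes besides *Cdkn1a*, 1 was higher, 3 lower and 2 not called, a share called of 66.7% beside 74.0% of all genes tested. *Cdkn1c* rose (1.10), *Cdkn2d* and *Cdkn2c* fell (-1.49 and -0.91), and *Cdkn2a*, which encodes the p53 activator ARF as well as p16, did not pass (-0.22 ± 0.12, adjusted p = 0.121, edgeR).

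**Figure D5:**
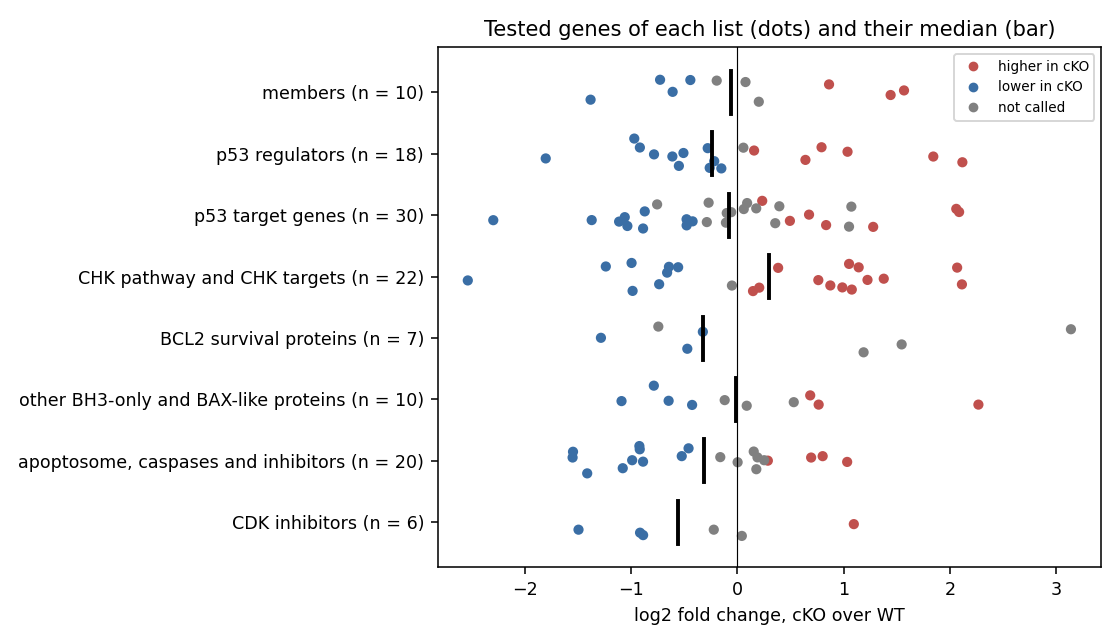
log2 fold change, cKO over WT, of every tested gene in each list (dots, spread vertically at random; red higher, blue lower, grey not called) with the list median as a black bar. Every list except that of BCL2 survival proteins holds genes called in both directions, and the medians lie between -0.55 and 0.30.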

How the data were processed

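Salmon and tximport (mm10 knownGene) gave the authors' estimated counts per Entrez gene, which are unscaled. TPM, which Salmon sets per whole library, were deposited alongside. Their table of differential expression (log2 fold changes, errors and p-values from DESeq2) was not used. Strand settings are not given in the sources used here.

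Groups were read from the genotype labels. Estimated counts were rounded. edgeR 4.0.16 in R 4.3.3 (TMM, glmQLFit and glmQLFTest, genotype alone) was run on genes with 10 or more counts over the 8 libraries, and a call needed an adjusted p (Benjamini-Hochberg, all genes) of at most 0.05. The script was tested on simulated data. Standard errors were the fold change over the square root of F. Libraries held 15850961 to 22044507 counts, and p-values measure the spread between these libraries. Coordinates and promoters are RefSeq GRCm38.p6; shared 31-base words and overlaps are from GENCODE M21 transcripts. The authors' columns left unmapped numbered 0.

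Named from each list were the 3 called, separated genes of largest change whose mean log2 CPM was 1 or more, and a fixed set of regulators, of which 1 is not reported here. The members and lists were chosen with earlier results of these data known. Alternatives were DESeq2 1.42.0, other scalings, other filters, transcript length offsets, limma 3.58.1 on log2(TPM + 1) or log2(TPM + 0.1), a replicate block and leaving out each library; limma on TPM rescaled to the listed genes was added after seeing the data.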

Additional observations from a re-analysis of the deposited data

Results flagged for a closer look

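In 3 of 56 groups of 4 libraries examined, a single library stood apart by Dixon's test at the 95% level, where chance gives about 2.8. The groups covered CPM of the members and *Arid1a*, relative transcript length of members, and the marker sums of each cell type. For *Cdkn1a* CPM, the second cKO library was highest at 5.94, with the other three at 4.83 to 4.95 (gap over range 0.893). For the relative transcript length of *Chek2*, the third cKO library was highest at 0.505, with the others at 0.248 to 0.285 (0.857). For that of *Pmaip1*, the second WT library was lowest at 1.16, with the others at 1.20 to 1.21 (0.889).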

How the results depend on the processing

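The 7 calls among the members held in direction and at 0.05 under 19 alternatives, including DESeq2 and leaving out each library in turn; at an adjusted p of 0.01, 6 of the 7 remained and *Chek2* was lost. Leaving out 1 library, the largest adjusted p of *Chek2* was 0.0466 in edgeR, and its log2 fold change ran from -0.53 to -0.33. The sign of *Bax*, not called in the main test, turned to -0.021 without TMM, to -0.0018 with transcript length offsets, to -0.090 on log2(TPM + 1), to -0.10 on log2(TPM + 0.1) and to -0.23 on rescaled TPM. That of *Trp73* turned to -0.28 without the second cKO library, and leaving out a library moved it between -0.28 and 0.47; with transcript length offsets it was 0.91. The cause was not tested. The median of all genes moved by over 0.1 only on rescaled TPM, by -0.11. Deviations of same-numbered WT and cKO libraries correlated at -0.0917 to 0.202, and those of differently numbered ones at -0.208 to 0.18. With a replicate block 3 members were higher and 4 lower as without. Over all genes that block gave 6429 higher and 6671 lower, against 5879 and 7216 without TMM and 4854 and 7624 on rescaled TPM. Depth limits *Trp73*, at 1 to 6 counts per library.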
